A study of Mus musculus with 10 samples.

Results

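The SR proteins and heterogeneous nuclear ribonucleoproteins (hnRNPs) are the main RNA-binding proteins that decide which exons enter an mRNA, and their transcripts were measured in round spermatids after a short heating of the testis. Genes were taken by symbol, as every protein-coding row named Srsf with a number, Hnrnp, Srpk with a number, Tra2a or Tra2b. This gave 36 of 55401 genes: 20 hnRNPs, 13 SR proteins (11 Srsf genes, Tra2a and Tra2b) and 3 SRPK kinases. Of these, 35 passed the filter on low counts, and Srpk3 did not.

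CD1 males, adult mice of an outbred stock, were anaesthetised with isoflurane, and for 30 minutes the testes touched water of 42 °C in the heated group and of 33 °C in the control group. They were killed once awake, and round spermatids, the haploid cells that follow meiosis, were isolated. Each group had 5 libraries of ribosome-depleted total RNA with stranded preparation, 5 at 42 °C and 5 at 33 °C. The labels give no genotype, transgene or further treatment, and the time spent on the isolation was not given in the sources used here. The labels do not state in words that each library is a separate mouse, although the design gives 5 per temperature. The p-values measure the spread between these libraries.

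SR proteins carry RNA recognition motifs and a tail rich in arginine and serine (the RS domain). Bound to exons, they recruit the spliceosome and favour inclusion. SRPK kinases phosphorylate the RS domain in the cytoplasm, after which the transportin Tnpo3 carries the protein into the nucleus. The hnRNPs often act against inclusion, and also package, export and stabilise RNA. The testis is known for extensive alternative splicing, and heat shock is known, from cell lines, to dephosphorylate Srsf10, which then represses splicing. Phosphorylation and exon use were not measured here, since the deposited values are counts per gene.

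Total counts per library ran from 60623568 to 102086073 at 42 °C and from 92311183 to 117723075 at 33 °C. The 36 genes together held 0.302% to 0.358% of the counts of a heated library, and 0.323% to 0.366% of those of a 33 °C library. The shallowest library, 42 °C replicate 2, also stood apart by its share of counts on transposable elements (TE), 16.2%, against 5.79 to 7.30% in the other libraries at 42 °C and 4.62 to 9.07% at 33 °C. The summed level of 17 round spermatid markers was 2243 to 3244 CPM (counts scaled to a common library size) in the 42 °C group and 1879 to 3053 CPM in the 33 °C group, and none of the 17 was at 0. Transcripts listed as markers of other stages were also counted. The 13 elongating spermatid markers summed to 5086 to 10841 CPM at 42 °C and 5389 to 7964 CPM at 33 °C. The 17 spermatocyte markers summed to 1746 to 2325 CPM at 42 °C and 2221 to 2605 CPM at 33 °C. Whether these transcripts came from round spermatids or from cells of those stages was not tested. Markers of spermatogonia, Sertoli, Leydig, peritubular, immune, endothelial and erythroid cells summed to at most 32.3 CPM per list in any library. In such bulk samples, fewer cells of a type and less RNA per cell cannot be told apart. Hspa1a, the inducible HSP70 chaperone, had 2.14 ± 1.04 CPM in the 42 °C group and 0.278 ± 0.0987 CPM in the 33 °C group (SD, n = 5 each; adjusted p = 0.0106 by edgeR).

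Promoter windows were searched for the heat shock element, the alternating GAA and TTC units that heat shock factors bind, because heat is the treatment. The windows are those of RefSeq on GRCm38.p6, 300 bases long, from 250 bases before to 50 bases after an annotated start. Of the 36 genes, 34 matched, with 48 windows. The motif of 3 units GAA, TTC and GAA, each followed by 2 bases of any kind before the next, on either strand, occurred in 198 of 32851 windows of all genes (0.603%). Among the members it occurred in 3 windows of 2 genes, Hnrnpa2b1 (both of its overlapping windows hold the same match) and Tra2b. The motif was chosen after the counts had been seen. The 2 windows are shown, 5′ to 3′ on the minus strand, with the matching bases in capitals. The Hnrnpa2b1 window is chr6:51469796-51470095, with the match 38 to 26 bases before that start. In its other window, chr6:51469845-51470144, the same match lies 11 to 23 bases after the start. The Tra2b window is chr16:22265956-22266255, with the match 207 to 195 bases before the start.
Hnrnpa2b1: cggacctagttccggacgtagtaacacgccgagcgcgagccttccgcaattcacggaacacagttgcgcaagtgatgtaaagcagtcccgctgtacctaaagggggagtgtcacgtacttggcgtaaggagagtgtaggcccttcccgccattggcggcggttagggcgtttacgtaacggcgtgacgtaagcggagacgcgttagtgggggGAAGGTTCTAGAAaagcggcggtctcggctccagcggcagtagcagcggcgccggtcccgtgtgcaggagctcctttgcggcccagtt
Tra2b: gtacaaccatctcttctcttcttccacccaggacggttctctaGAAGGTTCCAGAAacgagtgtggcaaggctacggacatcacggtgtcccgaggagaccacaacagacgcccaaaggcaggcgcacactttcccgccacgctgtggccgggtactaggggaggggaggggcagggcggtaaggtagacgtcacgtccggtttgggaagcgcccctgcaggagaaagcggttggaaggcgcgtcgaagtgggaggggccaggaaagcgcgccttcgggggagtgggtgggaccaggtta

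Neither gene with these letters passed the test. Hnrnpa2b1, a reader of RNA sorting and splicing signals, had 48.1, 53.9, 39.6, 35.2 and 37.4 CPM in replicates 1 to 5 at 42 °C, and 43.1, 41.3, 51.4, 56.8 and 36.3 CPM in the 33 °C group. The groups overlapped, with a log2 fold change (42 °C minus 33 °C) of -0.10 (95% interval -0.44 to 0.24, adjusted p = 0.782 by edgeR). Tra2b is given below with its paralog. A match of letters is a description and does not show that a factor binds there.

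Levels differed far more between genes than between temperatures. Compared per length, as CPM per kb of merged exons, the members ranged from 0.386 for Srsf12 to 78.5 for Hnrnpf, with a median of 9.44 over the 35 tested. Hnrnpf, which binds runs of G, had 78.6 ± 10.8 CPM per kb in the 42 °C group and 78.5 ± 9.80 CPM per kb in the 33 °C group (SD, n = 5 each) and stood at rank 697 of 21817 protein-coding genes. Hnrnpul1, a relative of Hnrnpu, followed with 63.0 ± 12.2 CPM per kb in the 42 °C group and 73.6 ± 5.63 CPM per kb in the 33 °C group. Hnrnpu, the scaffold attachment factor, had 36.0 ± 4.88 CPM per kb in the 42 °C group and 39.5 ± 2.25 CPM per kb in the 33 °C group. The fourth hnRNP was Hnrnpk, a KH-domain protein that binds runs of C, with a level over all libraries of 34.4 CPM per kb.

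On the same scale the SR proteins ran from 0.386 to 17.1 CPM per kb, with a median of 7.41, and the hnRNPs from 1.18 to 78.5 CPM per kb, with a median of 9.88, so the classes overlapped. Srsf5 was the highest SR protein, with 18.2 ± 2.28 CPM per kb in the 42 °C group and 15.9 ± 1.61 CPM per kb in the 33 °C group. Srsf7, which also acts in mRNA export, had 12.2 ± 1.04 CPM per kb in the 42 °C group and 13.3 ± 1.12 CPM per kb in the 33 °C group. The level of Srsf4 was 12.3 ± 1.28 CPM per kb in the 42 °C group and 13.2 ± 1.57 CPM per kb in the 33 °C group, so these 2 genes did not differ beyond their spread. The other SR proteins lay between 0.386 CPM per kb for Srsf12 and 11.7 CPM per kb for Tra2b. Srpk1, at 29.6 CPM per kb over all libraries, exceeded every SR protein and all hnRNPs but 4 on this scale. How multiply aligned reads were counted is not known here, so the levels and ranks of genes with close paralogs or pseudogenes, as many hnRNPs have, may depend on it.

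**Figure D1:**
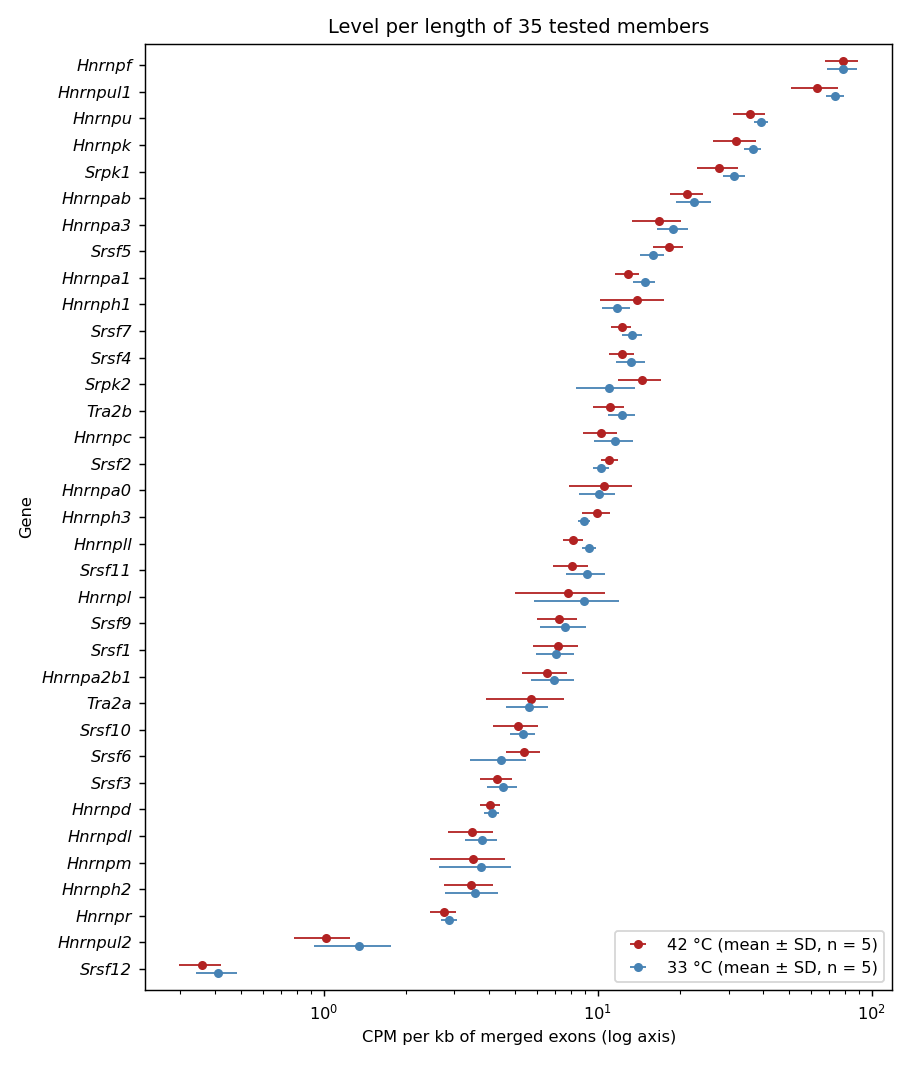
Level per length of the 35 tested genes, as CPM per kb of merged exons on a log axis; points are means and bars SD of 5 libraries at 42 °C (red) and 5 at 33 °C (blue). Hnrnpf and Hnrnpul1 are at the top and Srsf12 at the bottom, and the colours lie close together for most genes.

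No member passed the test for a difference between 42 °C and 33 °C. The edgeR quasi-likelihood test with Benjamini-Hochberg adjustment called 0 of the 35 higher and 0 lower at an adjusted p of 0.05, where 0.0884% of the 26025 features tested were higher and 0.00384% lower (0.0922% in all). At an unadjusted p under 0.05, 1 member (Srpk2) was higher and 0 were lower, where 8.56% of all features were higher and 2.94% lower. DESeq2 and limma voom also called 0 members. Over all features, DESeq2 called 307 of 33968 higher and 41 lower, and limma voom 124 of 26025 higher and 29 lower. With calls so rare, 0 among 35 members says little by itself. Before adjustment, DESeq2 gave 1 member higher and 0 lower with p under 0.05. Of its 46445 features with a p, 6.75% were higher and 1.77% lower at that threshold. At the same threshold limma voom gave 1 higher and 2 lower, where 12.6% of all features were higher and 6.61% lower. The log2 fold change was negative for 25 of the 35 members, where 51.1% of all features were negative, and its median was -0.09 for the members and -0.01 for all features. The features include 1077 TE rows, of which 75 were negative (median 0.27). Of the 24948 genes tested, 13222 were negative (median -0.03). No comparison was made with genes of like level, so a lean shared by expressed genes is not told apart from one of the members. The 20 hnRNPs had a median of -0.11, with 16 negative. The 13 SR proteins had a median of -0.07, with 8 negative. Over the other settings the hnRNP median ran from -0.15 to -0.02, where the values nearest to 0 came from limma voom, at -0.03 on all libraries and -0.02 when 42 °C replicate 2 was left out, and 20 to 27 of the 35 members were negative. The SR protein median ran from -0.11 to -0.01, nearest to 0 without replicate 4 of either temperature. Stage markers also differed between the groups, with none past the test: 13 of 17 spermatocyte markers were negative (median -0.16), 14 of 17 round spermatid markers positive (median 0.32) and 12 of 13 elongating spermatid markers positive (median 0.34). Their part in the members' values was not tested.

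The intervals bound what these libraries could have missed. The 95% interval lay within a 2-fold change in either direction for all 35 tested members, and within a 1.5-fold change for 28 of them. The lowest bound was a log2 fold change of -0.90, for Hnrnpul2, and the highest was 0.78, for Srpk2.

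**Figure D2:**
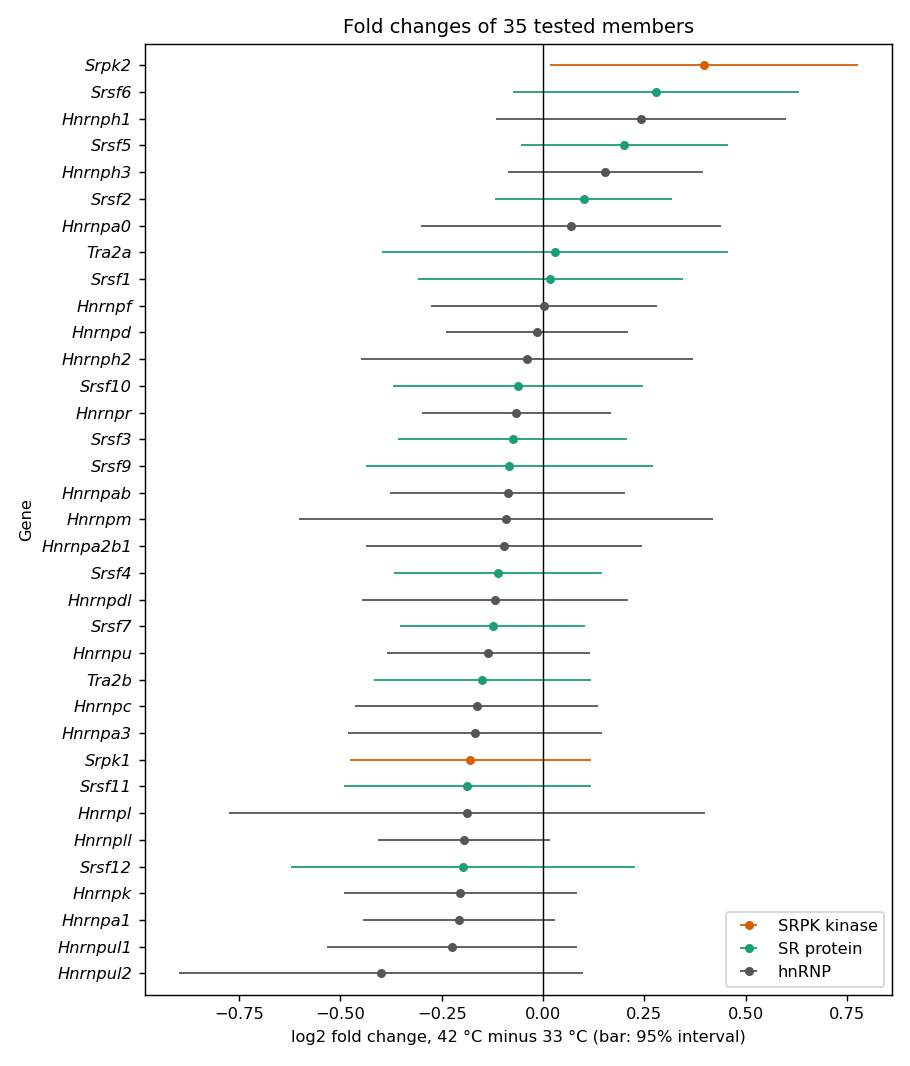
Log2 fold change (42 °C minus 33 °C) of the 35 tested genes with its 95% interval from the edgeR fit, coloured by class. The values run from -0.40 for Hnrnpul2 to 0.40 for Srpk2, and Srpk2 is the 1 gene whose interval lies on one side of 0.

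Among the SRPK kinases, Srpk2 had the smallest p of all members. Srpk2 (ENSMUSG00000062604, GRCm38 chromosome 5, 23503264 to 23684617, minus strand) had 176, 181, 169, 252 and 228 CPM in replicates 1 to 5 at 42 °C, and 136, 138, 168, 113 and 209 CPM in the 33 °C group. The 2 highest libraries were at 42 °C, and 33 °C replicate 5 lay above 3 of the heated libraries, so the groups overlapped. Its log2 fold change was 0.40 (with SE 0.18, 95% interval 0.02 to 0.78), and it did not pass (adjusted p = 0.430 by edgeR). Without 33 °C replicate 5 the log2 fold change was 0.58 (adjusted p = 0.0894 by edgeR), and without 42 °C replicate 4 it was 0.30 (adjusted p = 0.799 by edgeR).

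Srpk1 (ENSMUSG00000004865, chromosome 17, 28587648 to 28622709, minus strand), the kinase with high testis expression, had 394, 244, 376, 352 and 355 CPM in the 42 °C group, and 387, 415, 330, 398 and 418 CPM in the 33 °C group. The lowest value was that of 42 °C replicate 2, and the groups overlapped. Its log2 fold change was -0.18 (with SE 0.14, adjusted p = 0.574 by edgeR), -0.05 without that library and -0.11 without 33 °C replicate 2 or 5. The ratio of Srpk2 to Srpk1 counts was 0.446, 0.741, 0.449, 0.715 and 0.640 in the libraries at 42 °C, and 0.351, 0.331, 0.510, 0.282 and 0.499 at 33 °C. These ratios overlapped, and they were chosen after the values had been seen and not tested. Srpk3 (chromosome X, 73774405 to 73778925), the muscle kinase, summed to 4 counts over the 42 °C group and 2 over the 33 °C group, so it was not tested and no fold is given.

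The SR proteins with the smallest p were both higher on average at 42 °C. Srsf6 (chromosome 2, 162931528 to 162937121) had 22.7, 32.1, 23.4, 26.6 and 24.8 CPM in the 42 °C group, and 18.8, 19.0, 29.6, 22.2 and 17.2 CPM in the 33 °C group. At 33 °C replicate 3 alone lay inside the range of the heated libraries, with the other 4 below it. The log2 fold change was 0.28 (with SE 0.16, adjusted p = 0.488 by edgeR), and 0.42 without 33 °C replicate 3 (adjusted p = 0.299 by edgeR). It was 0.23 without 42 °C replicate 2, the highest library, 0.23 without 33 °C replicate 1, and 0.18 with the TE to gene ratio as a covariate. Srsf5 (chromosome 12, 80945504 to 80950507) had 75.9, 84.0, 65.6, 76.8 and 61.4 CPM in the 42 °C group, and 58.0, 56.9, 62.8, 66.4 and 72.6 CPM in the 33 °C group. Its groups overlapped more widely, with a log2 fold change of 0.20 (with SE 0.12, adjusted p = 0.490 by edgeR).

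Srsf7 (chromosome 17, 80200080 to 80207307) had 45.0, 44.3, 48.2, 38.7 and 41.0 CPM in the 42 °C group, and 52.2, 50.3, 42.2, 46.4 and 45.7 CPM in the 33 °C group. Srsf4 (chromosome 4, 131873617 to 131901706) had 47.4, 42.7, 48.8, 37.4 and 41.9 CPM in the 42 °C group, and 42.0, 49.5, 52.0, 51.9 and 40.3 CPM in the 33 °C group. Both overlapped between temperatures, with log2 fold changes of -0.12 (with SE 0.10, adjusted p = 0.604 by edgeR) for Srsf7 and -0.11 (with SE 0.12, adjusted p = 0.672 by edgeR) for Srsf4. Without 33 °C replicate 2 these were -0.06 for Srsf7 and -0.05 for Srsf4, and without 42 °C replicate 4 Srsf4 was at -0.06.

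Tra2a and Tra2b, paralogs that bind GAA-rich exonic enhancers, differed in how they varied. Tra2b (ENSMUSG00000022858, chromosome 16, 22244549 to 22266005) had 116, 105, 112, 82.3 and 96.4 CPM in the 42 °C group, and 106, 119, 110, 133 and 99.3 CPM in the 33 °C group. Its log2 fold change was -0.15 (with SE 0.12, adjusted p = 0.598 by edgeR), -0.08 without 42 °C replicate 4 and -0.09 without 33 °C replicate 2 or 4, and the groups overlapped. Tra2a (chromosome 6, 49243924 to 49264033) had 38.7, 61.6, 34.1, 30.3 and 33.7 CPM in the 42 °C group, and 42.6, 32.5, 41.5, 46.9 and 31.0 CPM in the 33 °C group. The value of 42 °C replicate 2 was far above all others. With it the log2 fold change was 0.03 (with SE 0.20, adjusted p = 0.953 by edgeR), and without it -0.16.

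The other 7 SR proteins had log2 fold changes from -0.20 for Srsf12 to 0.10 for Srsf2, with edgeR adjusted p from 0.568 to 0.962. These are Srsf1, the founding SR splicing activator, Srsf2 (SC35), Srsf3, Srsf9, Srsf10, Srsf11 and Srsf12. Within each, the highest library was 1.29 to 1.64 times the lowest. Srsf10, the protein that heat shock dephosphorylates in cell lines, was at -0.06 on the log2 scale, 42 °C minus 33 °C (95% interval -0.37 to 0.25, adjusted p = 0.854 by edgeR).

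Of the hnRNPs, Hnrnpll had groups that did not overlap. Hnrnpll (ENSMUSG00000024095, chromosome 17, 80029487 to 80062334, minus strand), known as a splicing regulator of CD45 in lymphocytes, had 101, 86.7, 104.8, 89.2 and 93.2 CPM in the 42 °C group, and 106, 121, 105.2, 106 and 105.4 CPM in the 33 °C group. The gap between the highest heated and the lowest control library was narrow, at 104.8 CPM in 42 °C replicate 3 and 105.2 CPM in 33 °C replicate 3. The log2 fold change was -0.19 (with SE 0.10, 95% interval -0.41 to 0.02), and it did not pass (adjusted p = 0.461 by edgeR; -0.11 without 33 °C replicate 2, the highest library). It was 1 of the 35 tested members without overlap, where 2% of all features tested had none.

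Hnrnpa1 (chromosome 15, 103240432 to 103246692), a repressor of exon inclusion, had 46.6, 38.4, 42.6, 37.6 and 37.4 CPM in the 42 °C group, and 50.8, 46.0, 45.3, 51.0 and 40.9 CPM in the 33 °C group. Most heated libraries were lower, with overlap, and the log2 fold change was -0.21 (with SE 0.11, adjusted p = 0.471 by edgeR). Hnrnpul2 (chromosome 19, 8820010 to 8834143), a paralog of Hnrnpul1, had 8.21, 9.28, 6.49, 4.91 and 7.24 CPM in the 42 °C group, and 8.87, 7.66, 13.7, 11.2 and 6.21 CPM in the 33 °C group. Its log2 fold change was -0.40 (with SE 0.23, adjusted p = 0.485 by edgeR), and -0.24 without 33 °C replicate 3, the highest library. A protein-coding gene on the same strand, Gm50139, overlaps Hnrnpul2 and had 96126 counts in all libraries against 7834, so how their reads were split is uncertain.

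The 4 hnRNPs of highest level per length also overlapped between temperatures. Hnrnpul1 (chromosome 7, 25721165 to 25754757) had 654, 392, 627, 496 and 555 CPM in the 42 °C group, and 618, 693, 573, 677 and 623 CPM in the 33 °C group. Hnrnpk (chromosome 13, 58391142 to 58403343) had 248, 158, 236, 183 and 208 CPM in the 42 °C group, and 233, 260, 220, 253 and 224 CPM in the 33 °C group. In both genes 42 °C replicate 2 was the lowest library and the groups overlapped. Their log2 fold changes were -0.22 (with SE 0.14, adjusted p = 0.508 by edgeR) for Hnrnpul1 and -0.20 (with SE 0.13, adjusted p = 0.515 by edgeR) for Hnrnpk, and without that library -0.10 for Hnrnpul1 and -0.09 for Hnrnpk. Hnrnpk was at -0.13 without 33 °C replicate 2.

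Hnrnpu (chromosome 1, 178321108 to 178337797) had 494, 352, 454, 402 and 385 CPM in the 42 °C group, and 427, 462, 436, 480 and 486 CPM in the 33 °C group. Hnrnpf (chromosome 6, 117900324 to 117925622) had 282, 193, 244, 252 and 225 CPM in the 42 °C group, and 218, 249, 204, 242 and 282 CPM in the 33 °C group. Their groups overlapped, with log2 fold changes of -0.14 (with SE 0.12, adjusted p = 0.609 by edgeR) for Hnrnpu and 0.00 (95% interval -0.28 to 0.28, adjusted p = 0.998 by edgeR) for Hnrnpf. With 1 library left out, Hnrnpu was at -0.20 (replicate 1 at 42 °C), -0.05 (replicate 2 at 42 °C), -0.09 (replicate 2 at 33 °C) and -0.07 (replicate 5 at 33 °C). The other 13 hnRNPs, Hnrnpa2b1 included, ran from -0.19 for Hnrnpl, which binds CA repeats, to 0.24 for Hnrnph1, a paralog of Hnrnpf, with edgeR adjusted p from 0.531 to 0.954.

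**Figure D3:**
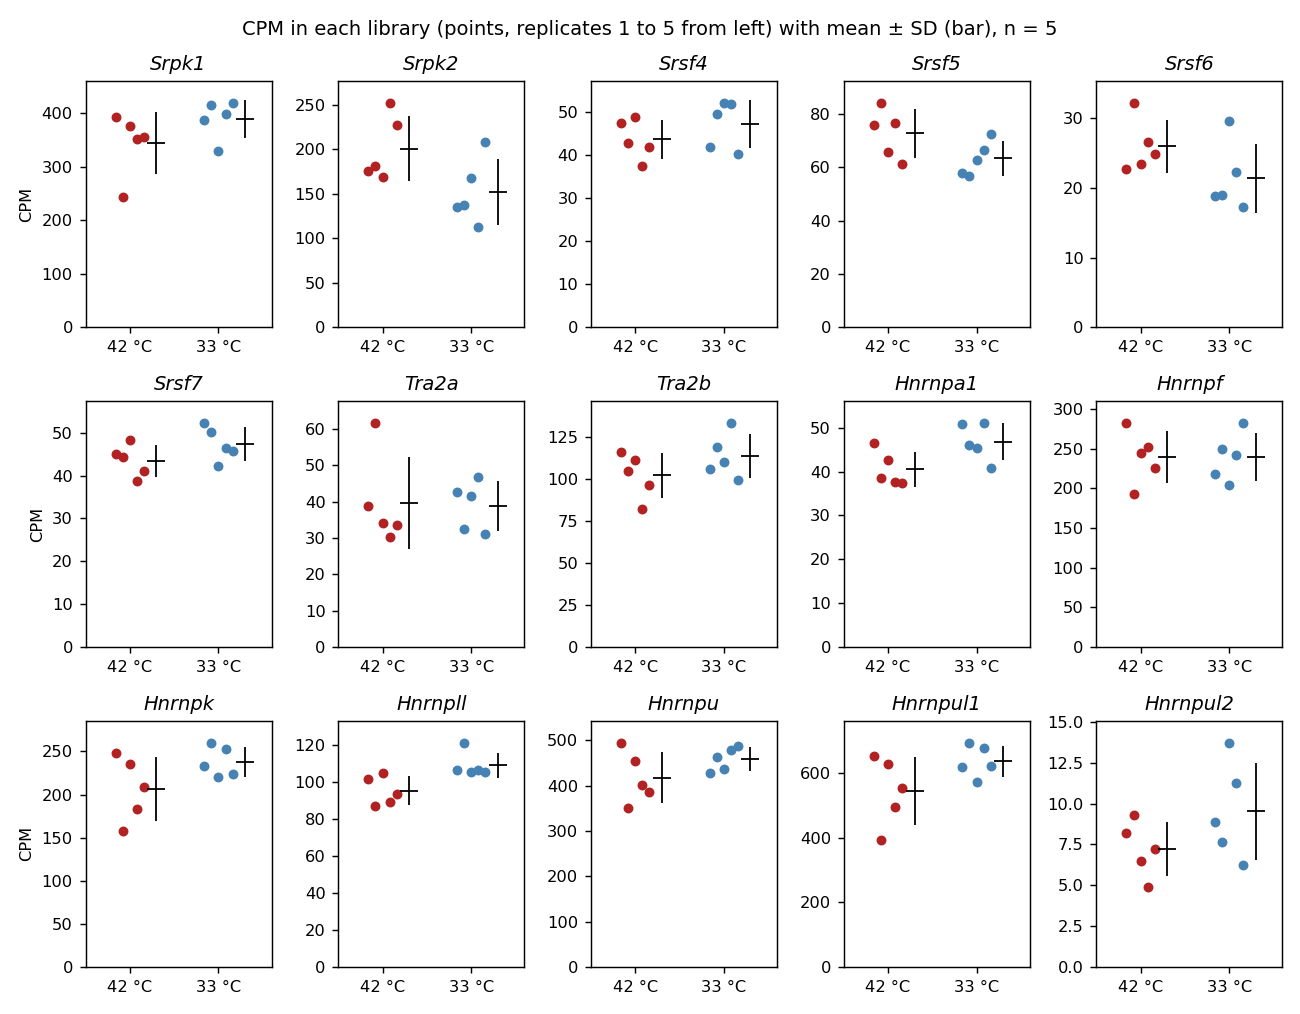
CPM in each library for the 15 tested genes chosen by p, level per length or name, with 42 °C (red) left of 33 °C (blue), points ordered by replicate number and bars for mean ± SD of 5 libraries. Hnrnpll is the 1 panel without overlap, and in the Srpk1, Hnrnpul1 and Hnrnpk panels 42 °C replicate 2 is the lowest point.

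The members varied between libraries in opposite ways. The highest library was 1.26 to 2.79 times the lowest, with a median of 1.61 over the 35 members. In 11 members 42 °C replicate 2 was the highest of the 10 libraries, and in 8 it was the lowest. The SR proteins gave 6 of the 11 and none of the 8. The hnRNPs gave 5 of the 11 and 7 of the 8, and the other of the 8 was Srpk1. How often this library was highest or lowest over all features was not counted, so these numbers are a description only. Hnrnpl had 40.7, 74.7, 41.5, 30.1 and 45.6 CPM in the 42 °C group, and 46.5, 47.3, 74.2, 68.0 and 28.9 CPM in the 33 °C group, so its highest libraries were 42 °C replicate 2 and 33 °C replicates 3 and 4. Hnrnpm, another splicing repressor, was highest in the same 3 libraries, at 41.4, 39.9 and 37.7 CPM. Those libraries also had the 3 highest TE shares, 16.2%, 9.07% and 8.02%. Pearson's r with the TE share was 0.67 for Hnrnpl and 0.65 for Hnrnpm. Neither passed (adjusted permutation p = 0.103 for Hnrnpl and 0.128 for Hnrnpm). Hnrnpm shares its strand with an overlapping protein-coding gene, Marchf2 (32235 counts in all libraries against 26692).

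**Figure D4:**
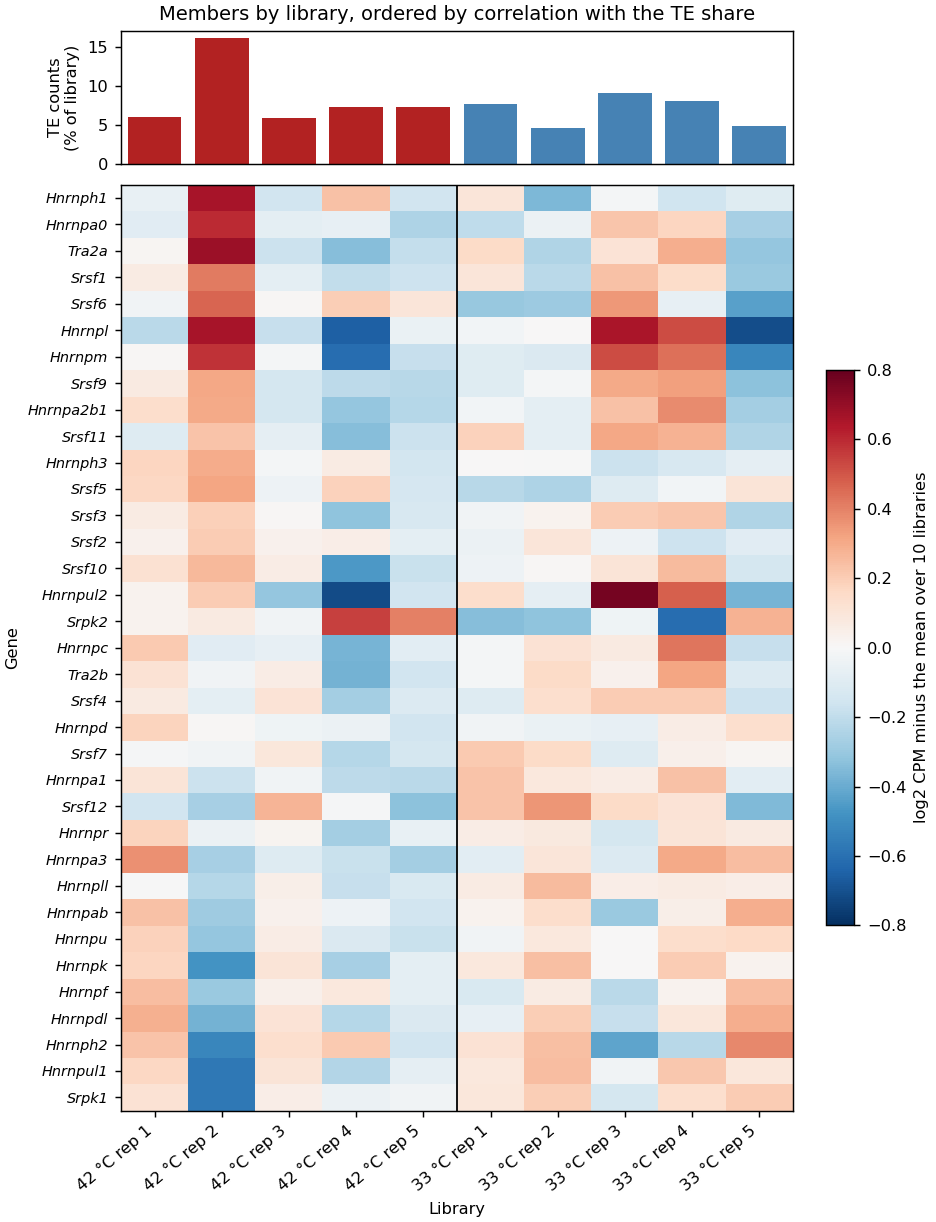
Log2 CPM of each tested gene minus its mean over 10 libraries (red higher, blue lower), with the TE share of each library above; libraries at 42 °C are left of those at 33 °C, and genes run from positive to negative correlation with the TE share. The column of 42 °C replicate 2 is red at the top, where Hnrnph1 and Hnrnpa0 lie, and blue at the bottom, where Hnrnpul1 and Srpk1 lie.

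Each of 25844 features with a count in every library, the 35 members among them, was set against 2 library measures over the 10 libraries. These were the TE share and the mean level of the 13 elongating spermatid markers, and p was adjusted over all 51688 relations. With the TE share, 8 of 35 members had an adjusted permutation p under 0.05 by Pearson's r, where 16.5% of all features did. By Spearman's rho 2 members did, Hnrnph2 and Srsf1, where 6.52% of all features did. TE rows are among these features, and their own counts make up the TE share. A share for genes alone was not computed. Over the features as a whole, such relations were common in these libraries. Negative were Srpk1, Hnrnph2, Hnrnpdl, Hnrnpf and Hnrnpab, and positive were Srsf1, Tra2a and Srsf6. X-linked Hnrnph2, a paralog of Hnrnph1, had 17.6, 10.5, 16.5, 17.4 and 13.5 CPM in the 42 °C group, and 16.2, 17.7, 11.2, 12.9 and 19.6 CPM in the 33 °C group. Its lowest values, 10.5, 11.2 and 12.9 CPM, were those of the 3 libraries of highest TE share. Its Pearson r was -0.83 (permutation p = 5e-05, adjusted 0.00257) and its Spearman rho -0.90 (permutation p = 0.00075, adjusted 0.0279).

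Srsf1 had 42.0, 53.6, 38.0, 35.0 and 35.9 CPM in the 42 °C group, and 42.9, 34.5, 47.3, 44.4 and 32.7 CPM in the 33 °C group, with the 3 highest values in the same libraries. The Pearson r was 0.82 (permutation p = 0.0018, adjusted 0.0260) and the Spearman rho 0.88 (permutation p = 0.00166, adjusted 0.0427). For Srpk1 the Pearson r was -0.95 (permutation p = 0.00101, adjusted 0.0179) and the Spearman rho -0.71 (permutation p = 0.0267, adjusted 0.187). Without the 2 libraries farthest from the median TE share, replicate 2 of each temperature, r was -0.86 for Hnrnph2, 0.70 for Srsf1, -0.69 for Srpk1 and 0.60 for Tra2a. With the mean of each temperature removed, r was -0.84 for Hnrnph2, 0.84 for Srsf1, -0.96 for Srpk1 and 0.89 for Tra2a. Each temperature alone has 5 libraries, too few for an r of its own. TE and gene counts come from the same libraries and share their scaling.

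With the elongating spermatid markers, 1 of 35 members, Srpk2, had an adjusted permutation p under 0.05 by Pearson's r, where 3.71% of all features did, and 0 by Spearman's rho, where 1.76% did. Its r was 0.84 (permutation p = 0.00243, adjusted 0.0315) and its rho 0.75 (permutation p = 0.0169, adjusted 0.149). Without the 2 libraries farthest from the median, r was 0.76, and with the mean of each temperature removed it was 0.81. Elongating markers had a median log2 fold change of 0.34 and round spermatid markers one of 0.32. The part of either stage in the Srpk2 difference was not tested, nor was whether these markers follow the number of elongating cells. The correlation with the elongating markers was negative for 30 of the 35 members, where 51.9% of all features were negative. None of these 30 had an adjusted permutation p under 0.05 by either coefficient. The members were measured in the same libraries, and no comparison was made with genes of like level.

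**Figure D5:**
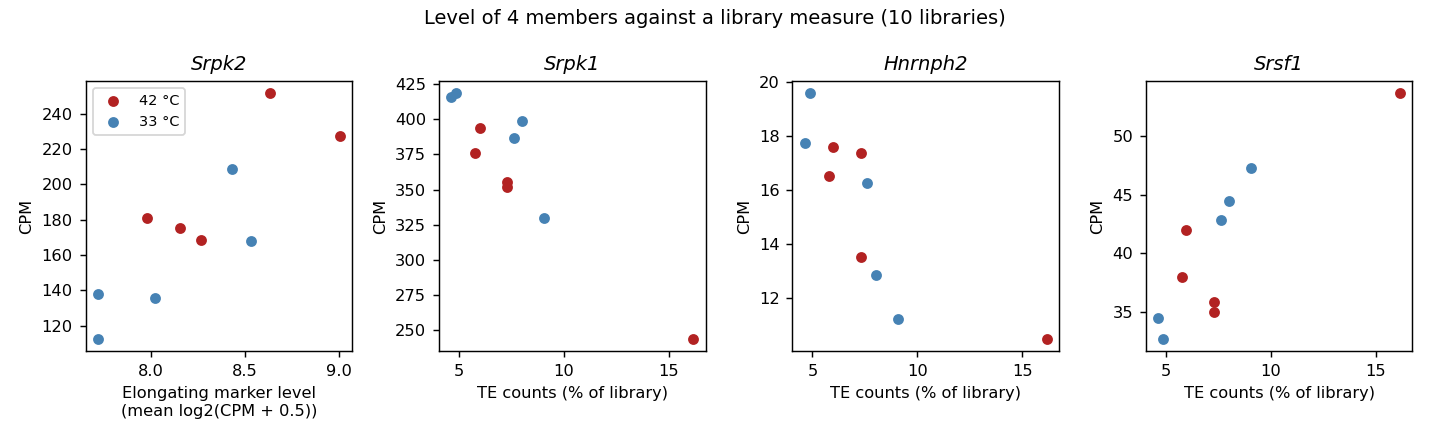
CPM of Srpk2 against the mean level of elongating spermatid markers (log2(CPM + 0.5)), and of Srpk1, Hnrnph2 and Srsf1 against the TE share, for 5 libraries at 42 °C (red) and 5 at 33 °C (blue). Pearson's r is 0.84, -0.95, -0.83 and 0.82 in the 4 panels from left to right, and 42 °C replicate 2 lies alone at a TE share of 16.2%.

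Many members have annotated transcripts that are not translated in full, through which SR proteins are known to limit their own levels. In GENCODE M21, 11 of 13 SR protein genes and 10 of 20 hnRNP genes have a transcript marked for nonsense-mediated decay, the pathway that destroys mRNAs with an early stop codon, against 20.8% of 21951 protein-coding genes. A transcript with a retained intron is annotated for 27 of the 36 members (75.0%), and for 41.5% of all protein-coding genes. The members had a median of 7.5 annotated transcripts and all protein-coding genes 3, so the comparison is one of annotation. Counts per gene do not separate these transcripts.

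Other genes of the splicing pathway also had no call, where 0.0922% of the 26025 features tested had one. With so small a share, 0 calls says little about these genes. They were counted in the main edgeR fit only. In 6 lists, edgeR called 0 of 24 other hnRNP family proteins, 0 of 33 SR-related proteins, exon junction proteins and importers, 0 of 16 kinases and phosphatases of SR proteins, 0 of 64 core spliceosome proteins, 0 of 32 splicing regulators studied in male germ cells and 0 of 18 decay and exon junction core proteins. At an unadjusted p under 0.05, 2 of 187 list entries were higher (1.07%, where 8.56% of all features were) and 10 lower (5.35%, where 2.94% of all features were), with shared genes counted in each list. The core spliceosome had negative log2 fold changes for 59 of its 64 genes, with a median of -0.17, where 51.1% of all features were negative and their median was -0.01. Genes alone had a median of -0.03, and no comparison was made with genes of like level. Spermatocyte markers were also negative in 13 of 17 cases, with a median of -0.16, and their part in the spliceosome values was not tested.

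Within the core spliceosome, Snrnp27, a protein of the tri-snRNP, had 26.5 ± 4.40 CPM in the 42 °C group and 50.6 ± 12.4 CPM in the 33 °C group (SD, n = 5 each). Its log2 fold change of -0.93 (SE 0.17) had the smallest p of these lists and did not pass (adjusted p = 0.0893 by edgeR). Prpf39 had 5.11 ± 2.33 CPM in the 42 °C group and 3.55 ± 0.712 CPM in the 33 °C group. Ddx17, an RNA helicase of splicing complexes, had 169 ± 21.2 CPM in the 42 °C group and 122 ± 15.1 CPM in the 33 °C group (log2 fold change 0.47, adjusted p = 0.280 by edgeR), and Qk, the quaking protein, 211 ± 31.7 CPM in the 42 °C group and 257 ± 19.8 CPM in the 33 °C group.

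Near the SR proteins in function, Clk4, a nuclear kinase of RS domains, had 47.6 ± 7.56 CPM in the 42 °C group and 39.6 ± 4.41 CPM in the 33 °C group (log2 fold change 0.27, adjusted p = 0.456 by edgeR), and Ppp1r8 had 6.30 ± 1.17 CPM in the 42 °C group and 7.74 ± 1.23 CPM in the 33 °C group. Rsrp1 had 22.8 ± 5.88 CPM in the 42 °C group and 18.7 ± 3.12 CPM in the 33 °C group, and Srrm4, a regulator of neuronal microexons, 1.00 ± 0.183 CPM in the 42 °C group and 1.98 ± 0.976 CPM in the 33 °C group (adjusted p = 0.384 by edgeR). Among other hnRNP family genes, Msi2 had 58.9 ± 4.41 CPM in the 42 °C group and 54.1 ± 7.82 CPM in the 33 °C group, and Ptbp3, a polypyrimidine tract binding protein, 23.4 ± 3.30 CPM in the 42 °C group and 29.5 ± 5.13 CPM in the 33 °C group (adjusted p = 0.430 by edgeR). Of the decay genes, Upf2 had 84.4 ± 10.4 CPM in the 42 °C group and 80.0 ± 4.82 CPM in the 33 °C group, and Smg8 12.1 ± 1.92 CPM in the 42 °C group and 15.7 ± 2.22 CPM in the 33 °C group.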

How the data were processed

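Counts per gene and per TE subfamily were deposited by the authors as 1 table without normalization; that they are raw counts was judged from the whole numbers and unequal sums. Per the submitters' processing notes, Trim Galore, cutadapt, DRAGEN and the builds GRCm38 and mm10 were used, with no versions or roles. For the counter, the strand setting and multiply aligned reads, the choices were not given in the sources used here. Positions were identical to GENCODE M21 for 99.35% of 55141 shared identifiers, and merged exon lengths came from it.

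edgeR 4.0.16 in R 4.3.3 fitted the group to all 10 libraries (quasi-likelihood test, TMM over all rows, filterByExpr with minimum count 10 and minimum total 15). Benjamini-Hochberg adjustment ran over all 26025 features. CPM use TMM-scaled library sizes. SE is the log2 fold change divided by the root of F. Correlations used 100000 permutations on log2 CPM, adjusted over all 51688 relations of the 25844 features with a count in every library. Replicates differed by more than sampling noise in every pair. Chi-square per degree of freedom was 15.4 between 42 °C replicates 1 and 3, and 58.9 to 325 in the other pairs of a group. Replicates 1 and 3 at 42 °C were thus the most alike, and the labels do not state whether they are separate mice. Alternatives were DESeq2 1.42.0, limma 3.58.1 voom with quality weights, other scalings and filters, a TE covariate, a replicate block and leaving out each library. The test was checked on simulated counts drawn independently for each feature. These held no shift shared by many features of a library, so that case was not checked.

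The members and lists were chosen with earlier results of these data known. Values by library are given for the 8 members of smallest p, the 3 hnRNPs and 3 SR proteins of highest level per length, the SRPK genes, Tra2a and Tra2b; each pathway list names its gene of smallest p in each direction. Hnrnpa2b1, Hnrnpl, Hnrnpm, Hnrnph2 and Srsf1 were added after their values were seen.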

Additional observations from a re-analysis of the deposited data

Results flagged for a closer look

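In 6 of 70 groups of 5 libraries, the highest or lowest library of a member lay farther from the rest than Dixon's 95% value allows, and chance flags about 1 in 20 groups. Of these, 3 concern 42 °C replicate 2, the library of lowest depth and highest TE share. It had 41.1 CPM of Hnrnpa0, a protein of AU-rich RNA elements, where the other heated libraries had 22.9 to 26.0 CPM. It had 61.6 CPM of Tra2a, where the others had 30.3 to 38.7 CPM, and 244 CPM of Srpk1, where the others had 352 to 394 CPM. In 42 °C replicate 1 Hnrnpa3 was at 122 CPM, above 78.7 to 88.4 CPM in the other heated libraries. At 33 °C, Hnrnpll had 121 CPM in replicate 2, above 105.2 to 106 CPM in the others, and Hnrnpr had 56.4 CPM in replicate 3, below 64.8 to 66.9 CPM in the others.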

How the results depend on the processing

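No member was called in either direction under any of 19 other settings or the 1 added after seeing the data, and their smallest adjusted p was 0.0894 (edgeR, without 33 °C replicate 5). Leaving out 1 library gave medians of -0.11 to -0.01 for SR proteins and -0.15 to -0.08 for hnRNPs (log2). The other settings, limma voom included (-0.03 for hnRNPs), moved both by less than the SD between libraries. That SD was 0.19 for SR proteins and 0.12 for hnRNPs, larger than the size of the medians, -0.07 and -0.11. This comparison therefore cannot tell a kept median from a lost one. Of 300 values of the 15 tested members chosen by p, level or name, 287 kept their sign and 13 did not, all of Hnrnpf, Tra2a, Hnrnpu and Srsf4. Hnrnpf was -0.00099 with the replicate block and -0.066 to 0.11 without 1 library. Tra2a was -0.16 with limma voom, -0.14 with the TE covariate, -0.0047 with the replicate block, -0.16 to 0.11 without 1 library and -0.17 with limma voom without 42 °C replicate 2. That added fit gave 0.034 for Hnrnpu and 0.035 for Srsf4. Over all features, calls higher and lower at 42 °C were 23 and 1, against 15 and 1 with library totals, 73 and 3 with no filter, 2 and 0 with a mean of at least 1 CPM, 307 and 41 with DESeq2, 124 and 29 with limma voom, 40 and 3 with the TE covariate, 4 and 0 with the replicate block, and 83 and 28 with the added fit; the cause was not tested. Leaving out 1 library gave 10 to 21 higher and 0 to 2 lower, with 15 higher without 42 °C replicate 1 or 4, 14 without 42 °C replicate 2 or 5, 12 without 33 °C replicate 1 and 10 without 33 °C replicate 4. No pairing by the shared replicate numbers was seen. With the mean of each temperature removed, same-numbered libraries had correlations of -0.41 to -0.12, and 0 of 5 correlated best with its own number. So few correlations cannot exclude that a number marks something shared. The members described after their values were seen were not among the 15 tested members followed here. Srpk3 had too few counts to be tested.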

Other observations

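Processed pseudogenes with member names held few counts over the 5 libraries of each temperature. Srsf3-ps had 24 counts at 42 °C and 25 at 33 °C, Hnrnpa1l2-ps2 had 11 at 42 °C and 9 at 33 °C, Hnrnpa1l2-ps had 1 at 42 °C and 1 at 33 °C, and Tra2b-ps had 0 in all libraries. Of the 36 members, 18 overlap another annotated gene and 7 overlap one on the same strand. The ratio of Hnrnpf to Hnrnph1 counts, 2 paralogs that bind runs of G, was 4.00, 1.67, 3.70, 2.92 and 3.41 in the libraries at 42 °C, and 2.79, 4.36, 2.82, 3.68 and 4.10 at 33 °C. It may depend on how reads that align to both were counted.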
